A study of Mus musculus with 6 samples.

Results

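Regulatory T cells (Tregs) are CD4+ T cells that restrain immune responses, and Foxp3, the forkhead transcription factor that defines the lineage, was examined here with the other forkhead genes Foxp1, Foxp4, Foxo1, Foxo3, Foxo4, Foxj2, Foxj3, Foxk1 and Foxk2. The members were the rows of the normalized count table whose gene symbol was one of these names, which gave 10 of the 15944 genes in the table. All 10 symbols were found once, and no member was at 0 in any library. No filter on low values was applied here, and genes removed before the table was deposited, if any, cannot be seen. RNA was sequenced in bulk from FACS-sorted splenic Tregs of C57BL/6 mice that carried a red reporter for Foxp3 (RFP) and a green reporter for RORγt (GFP), the transcription factor linked to the IL-17 programme. There were 3 libraries of RORγt+ Tregs (CD3+CD4+, Foxp3 RFP-positive, RORγt GFP-positive, called biTreg by the submitters) and 3 libraries of CCR6+RORγt- Tregs (the same gate but GFP-negative and positive for CCR6, called Treg17). CCR6 was not part of the gate for the RORγt+ cells. The cells were described as naïve, the labels named no treatment, and they gave neither the age of the mice nor which animals went into each library. The spread that the p-values rest on is therefore that of sorted libraries and may be technical only.

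Forkhead factors share a winged-helix DNA-binding domain, and their subfamilies are named by letter. FOXP proteins can pair with each other, and Foxp3 holds the Treg programme in place by activating and repressing target genes. FOXO proteins are kept out of the nucleus when PI3K and AKT signalling is active and otherwise drive genes for quiescence, homing to lymphoid tissue and survival, and Foxo1 is needed for Treg function. FOXK proteins repress transcription with SIN3 and BAP1 complexes and take part in the control of metabolism and autophagy. Because FOXO activity depends on where the protein is, its transcript level is not a readout of that activity.

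The members are recognisable as one family in the DNA that encodes the third helix of the forkhead domain, the part that reads the DNA target, so this stretch is shown for 9 of the genes. The 60 bases were the in-frame Foxp3 window most alike in the other members' coding sequences (GENCODE M21, GRCm38), read 5′ to 3′ on the coding strand, with capitals at bases that differ from Foxp3.
Foxp3: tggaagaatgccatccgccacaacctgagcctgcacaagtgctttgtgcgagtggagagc
Foxp4: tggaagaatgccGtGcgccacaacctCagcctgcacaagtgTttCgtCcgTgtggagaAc
Foxo1: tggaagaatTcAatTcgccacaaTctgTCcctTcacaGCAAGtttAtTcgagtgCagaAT
Foxo3: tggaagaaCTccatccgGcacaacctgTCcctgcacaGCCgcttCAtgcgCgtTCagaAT
Foxo4: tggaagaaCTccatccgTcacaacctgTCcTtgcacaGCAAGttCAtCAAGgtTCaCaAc
Foxj2: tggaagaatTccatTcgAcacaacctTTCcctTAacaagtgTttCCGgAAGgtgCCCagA
Foxj3: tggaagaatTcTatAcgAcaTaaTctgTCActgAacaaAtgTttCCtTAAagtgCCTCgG
Foxk1: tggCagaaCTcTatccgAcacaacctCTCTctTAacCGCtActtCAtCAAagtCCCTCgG
Foxk2: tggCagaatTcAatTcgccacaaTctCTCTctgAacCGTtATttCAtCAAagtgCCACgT
Foxp4 shared 52 of the 60 bases with Foxp3. Foxo3 shared 45, Foxo1 43, Foxj2 41, Foxo4 39, Foxj3 38, Foxk2 35 and Foxk1 34, so the FOXK pair stood farthest from Foxp3 among those shown. Within a subfamily Foxo3 and Foxo4, and Foxk1 and Foxk2 each shared 49 bases, Foxo1 and Foxo3 shared 47, and Foxj2 and Foxj3 shared 46. In each of these genes the window crossed an exon junction. In Foxp3 it lay at chrX:7592746-7592953 on the plus strand, over exons 10 and 11 of 11, and in Foxj2 at chr6:122828498-122831489 on the plus strand, over exons 2 and 3 of 11.

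Shared sequence of this kind bears on the measurements only where it is long enough for a read to match more than 1 gene. Over 45 pairs of members, 1 pair had an identical coding run of at least 31 bases. That pair was Foxo1 and Foxo3, with a run of 38 bases in the domain.
Foxo1 and Foxo3: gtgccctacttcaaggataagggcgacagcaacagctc
The run lay at chr3:52269372-52269409 in exon 1 of 3 of Foxo1 (plus strand) and at chr10:42274829-42274866 in exon 2 of 4 of Foxo3 (minus strand). Foxp3 itself shared no 31-base window with another member, but 26.4% of its transcript windows also occurred in transcripts of other genes on either strand, against less than 10% for each of the other 9 members. The largest share, 16.2%, was with Flicr on the same strand, and Ccdc22 and Ppp1r3f overlap Foxp3 on the opposite strand with 10.2% and 5.01%. Gm36995, also on the opposite strand, shared 5.61%. Reads of Flicr could have entered the Foxp3 value whether or not the library preparation kept the strand. That is not given in the sources used here, so reads of the opposite-strand genes could have entered too. Ppp1r3f averaged 221 ± 0.666 normalized counts in RORγt+ Tregs and 168 ± 13.9 in CCR6+RORγt- Tregs (SD, n = 3 each). Ccdc22 averaged 151 ± 41.5 and 158 ± 21.5 in the same order. Both are small beside the level of Foxp3. Flicr and Gm36995 were not among the 15944 genes, so their levels are not known.

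The 6 libraries had totals of 11325902 to 11890770 normalized counts. The third RORγt+ library stood apart: its Pearson r with the other libraries over all genes was 0.932 to 0.939, against 0.947 to 0.967 among the other 5, and it had 1247 genes at 0 against 438 to 638. The members' differences are therefore also given without it, as are the printed log2 differences of other named genes that moved by over 1.5 times. Both sorts carried the T cell and Treg markers, with all 11 listed genes measured and summed levels of 64465 to 70464 in RORγt+ and 66349 to 68385 in CCR6+RORγt- libraries. B cell markers (13 of 13 listed measured, sum 7573 to 11100 against 8573 to 10920, mostly Ighm) overlapped between the groups. Gamma delta T cell markers (4 of 8 listed measured) summed to 110 to 140 in RORγt+ and 51.5 to 73.8 in CCR6+RORγt- libraries, without overlap. Most of this sum was Trdc, which averaged 99.2 against 61.6 without overlap and did not pass the test (limma adjusted p = 0.354). Of the measured genes, 1 rose: Il23r, the IL-23 receptor, which RORγt+ T cells of other lineages also express. It averaged 16.1 against 0.277 (log2 difference 3.80, limma adjusted p = 0.0361). Cd163l1 (5.89 against 0.233, limma adjusted p = 0.324) did not overlap either, and Blk overlapped. The monocyte and neutrophil list (5 of 13 measured) summed to 58.5 to 163 against 37.9 to 59.1, dendritic cell markers (6 of 9) to 329 to 648 against 432 to 461, NK and CD8 markers (9 of 9) to 357 to 400 against 374 to 464, and red cell and platelet markers (6 of 9) to 139 to 883 against 59.9 to 4283. No measured marker was at 0 in all libraries. The part of these markers in the results was not tested. In bulk RNA, fewer cells of a type and less RNA per cell cannot be told apart.

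None of the 10 forkhead genes passed the test between RORγt+ and CCR6+RORγt- Tregs. In limma on log2(normalized count + 1) with Benjamini-Hochberg adjustment over all genes, 90 of 15944 genes (0.564%; 0.32% higher and 0.245% lower in RORγt+ Tregs) had an adjusted p under 0.05, and 0 of the 10 members did. Among genes with a mean of at least 100 normalized counts the share was 0.652%. At an unadjusted p under 0.05 there was 1 member, Foxj2, on the lower side, against 10.9% of all genes (4.8% higher and 6.12% lower), and no other kind of test was run. The 2 groups of libraries did not overlap for 4 members, Foxp3 on the higher side in RORγt+ Tregs and Foxp1, Foxj2 and Foxk1 on the lower side. Among all genes 18.1% did not overlap (8.31% higher and 9.81% lower), and 18.8% of those with a mean of at least 100 normalized counts. The members were chosen with earlier results of these data known, so the count of 4 is only a description. The median log2 difference over the members was -0.08, with 3 positive and 7 negative, beside a median of -0.01 over all genes. The median size of the difference without its sign was 0.182 for the members, 0.255 for all genes and 0.17 for genes with a mean of at least 100. The members ranked from the 65.4th to the 99.3rd percentile of mean level, and the plot of members by library shows the values.

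**Figure D1:**
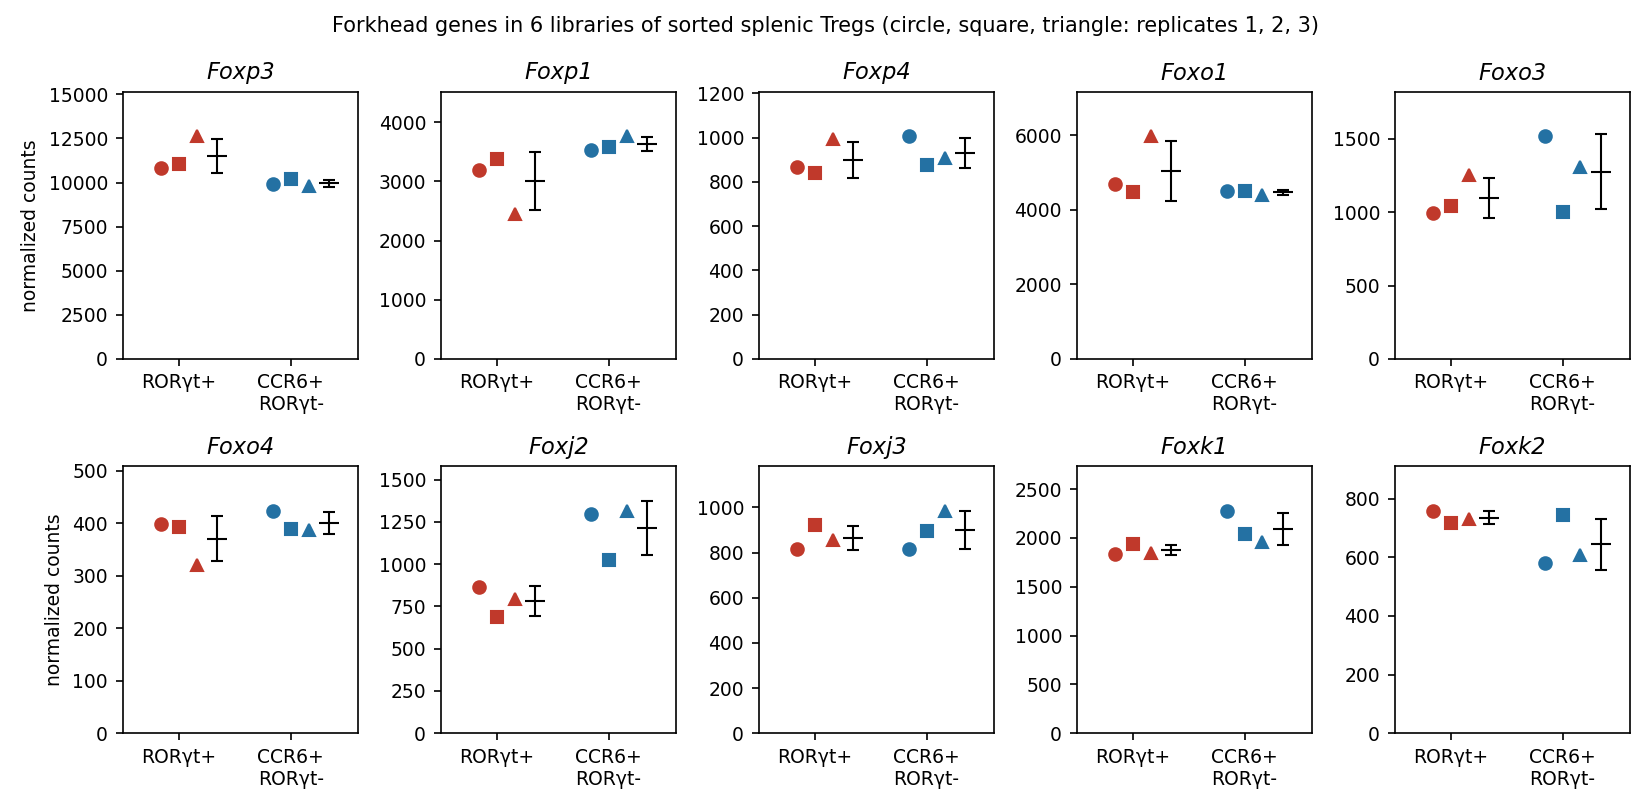
Normalized counts (linear axes from 0) of the 10 forkhead genes in each library, 1 panel per gene, RORγt+ Tregs in red and CCR6+RORγt- Tregs in blue, with circle, square and triangle for replicates 1, 2 and 3 and black bars for the mean and SD (n = 3). Foxp3, Foxp1, Foxj2 and Foxk1 do not overlap between the groups, and the third RORγt+ library (triangle) lies apart from the other RORγt+ libraries in Foxp3, Foxp1 and Foxo1.

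Foxp3 (ENSMUSG00000039521, chrX:7573644-7595245, plus strand) was gated in both sorts through its reporter, so its presence in all libraries was set by the sort. It had 10835, 11072 and 12609 normalized counts in the RORγt+ libraries and 9914, 10187 and 9790 in the CCR6+RORγt- libraries. The RORγt+ values were all higher, and the groups did not overlap. The means were 11505 ± 963 and 9963 ± 203 (SD, n = 3 each), a log2 difference of 0.20 ± 0.11 (SE) with a 95% interval of -0.06 to 0.47 (limma adjusted p = 0.595, lowest 0.374 over the alternatives). Without the third RORγt+ library the difference was 0.14 (limma adjusted p = 0.374), with a RORγt+ mean of 10953.

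Foxp1 (chr6:98925338-99522721, minus strand), which helps to keep naïve T cells quiescent, had the opposite sign. It had 3194, 3380 and 2457 normalized counts in RORγt+ and 3538, 3585 and 3759 in CCR6+RORγt- libraries. The third RORγt+ library was the lowest, and the groups did not overlap. The log2 difference was -0.28 ± 0.15 (SE; 95% interval -0.62 to 0.06; limma adjusted p = 0.565), and without the third RORγt+ library it was -0.14 (limma adjusted p = 0.403), from a RORγt+ mean of 3287 against 3628. Foxp1 is also expressed in B cells. Their summed markers overlapped between the groups as given above, but that sum was mostly Ighm. Of the 13 B cell markers, 8 had a positive and 5 a negative log2 difference, and none passed the test. The part of B cells in the Foxp1 value was not tested. Foxp4 (chr17:47867133-47924645, minus strand), a close relative of Foxp1, had 867, 840 and 994 against 1006, 877 and 909 normalized counts. These values overlapped, and the log2 difference was -0.05 (95% interval -0.36 to 0.26).

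Foxo1 (chr3:52268336-52353221, plus strand), the FOXO gene with the highest level here, had 4693, 4472 and 5970 normalized counts in RORγt+ and 4494, 4519 and 4392 in CCR6+RORγt- libraries. The third RORγt+ library alone was far above the other 5, which overlapped. The log2 difference of 0.16 ± 0.14 (SE; 95% interval -0.16 to 0.48; limma adjusted p = 0.755) came to 0.04 without that library (limma adjusted p = 0.831). Foxo3 (chr10:42181841-42276755, minus strand), which acts in part redundantly with Foxo1, had 996, 1038 and 1254 against 1515, 1003 and 1308 normalized counts. The groups overlapped, and the log2 difference was -0.205 (95% interval -0.63 to 0.22). It was -0.071 without CCR6+RORγt- replicate 1 and -0.368 without replicate 2 of the same sort. Foxo4 (chrX:101254528-101260873, plus strand), which had the lowest normalized counts of the members, had 399, 393 and 321 against 424, 389 and 387. Its groups overlapped too, with a log2 difference of -0.11 (95% interval -0.47 to 0.25) that came to -0.014 without the third RORγt+ library and -0.072 without CCR6+RORγt- replicate 1.

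Foxj2 (ENSMUSG00000003154, chr6:122819914-122845366, plus strand), a transcription factor whose part in Tregs is little described, differed most among the members. It had 866, 689 and 795 normalized counts in RORγt+ and 1299, 1028 and 1316 in CCR6+RORγt- libraries. Every RORγt+ library was below every CCR6+RORγt- library. The means were 784 ± 89 and 1214 ± 162 (SD, n = 3 each), a ratio of 0.645. The log2 difference was -0.63 ± 0.16 (SE) with a 95% interval of -0.995 to -0.262, and limma gave an adjusted p of 0.197 over all genes (0.00457 before adjustment). Without the third RORγt+ library the difference was -0.64 (limma adjusted p = 0.127), so that library did not decide it. Leaving out any 1 library moved it between -0.74 and -0.54. Gm26826, an antisense transcript, shared 2.45% of the Foxj2 transcript windows. Foxj3 (chr4:119537004-119629119, plus strand) had 815, 922 and 856 against 817, 897 and 985 normalized counts. The Foxj3 groups overlapped (log2 difference -0.055, 95% interval -0.36 to 0.25).

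Foxk1 (chr5:142401497-142462011, plus strand) had 1840, 1937 and 1849 normalized counts in RORγt+ and 2279, 2041 and 1957 in CCR6+RORγt- libraries. All RORγt+ values were lower, by as little as 1937 against 1957, and the log2 difference was -0.155 ± 0.115 (SE; 95% interval -0.43 to 0.11; limma adjusted p = 0.714). Without CCR6+RORγt- replicate 1 it was -0.092. Foxk2 (chr11:121259990-121309896, plus strand) had 758, 717 and 729 against 580, 744 and 606. Its groups overlapped through 1 CCR6+RORγt- library, and the log2 difference was 0.20 (95% interval -0.136 to 0.535; limma adjusted p = 0.701), or 0.13 without CCR6+RORγt- replicate 1 and 0.308 without replicate 2. Without the third RORγt+ library the log2 differences of Foxp4, Foxo3, Foxj3, Foxk1 and Foxk2 were -0.122, -0.306, -0.049, -0.145 and 0.205, and none of them passed.

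**Figure D2:**
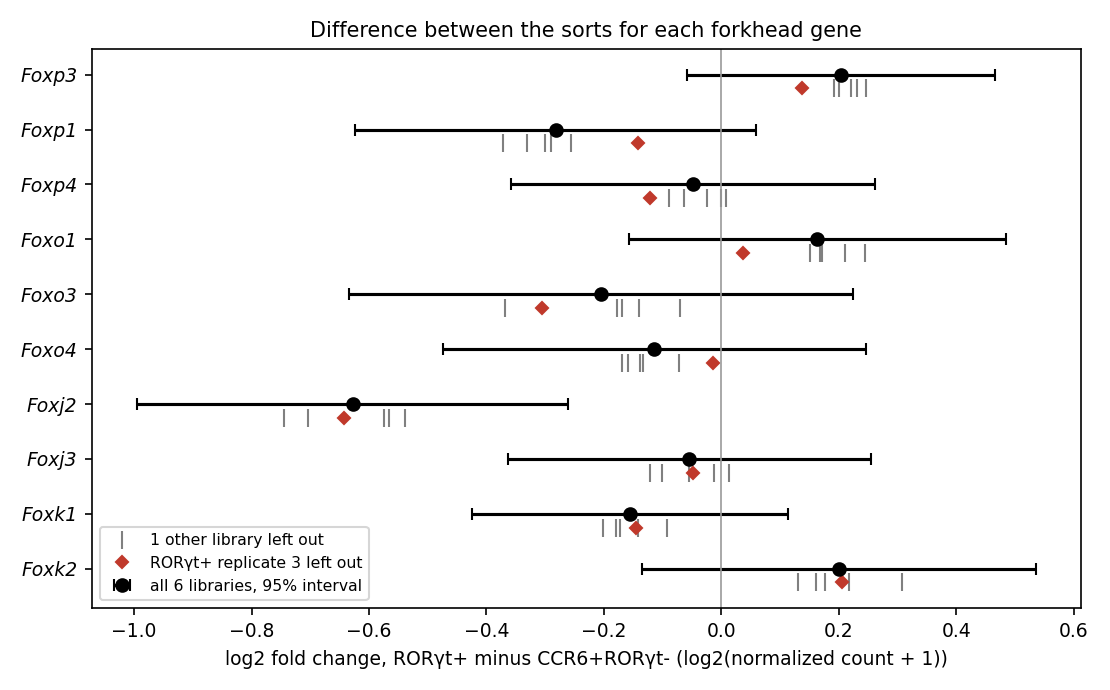
Log2 difference of each forkhead gene, RORγt+ minus CCR6+RORγt- Tregs, with its 95% interval from limma (black), the value without the third RORγt+ library (red diamond) and the values with each other library left out (grey ticks). The interval of Foxj2 lies wholly below 0, those of the other members include 0, and Foxp1 and Foxo1 lie nearer to 0 without the third RORγt+ library.

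Levels of different genes were set side by side per kilobase of the longest annotated transcript. Foxp3 came first with 3001 ± 251 normalized counts per kilobase in RORγt+ and 2599 ± 53 in CCR6+RORγt- libraries. Foxo1 followed with 582 and 516, Foxp1 with 419 and 505, and Foxk1 with 252 and 281. Foxp3 was 5.1 times Foxo1, and Foxp1 was 1.73 times Foxk1, each without overlap over the 6 libraries. All other neighbours in the order overlapped: Foxo1 and Foxp1, and from Foxk1 down Foxp4 (mean 229), Foxj2 (189), Foxj3 (184), Foxo3 (173), Foxk2 (137) and Foxo4 (122). The order from the second to the tenth place depended on the length used. With the mean length of the coding transcripts Foxp1 stood above Foxo1, and with merged exon length Foxk1 stood above Foxp1 and Foxj3 came last. Foxp3 kept the first place and Foxo1, Foxp1 and Foxk1 kept places 2 to 4 under all 3 lengths, which the plot of levels per kilobase sets side by side.

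**Figure D3:**
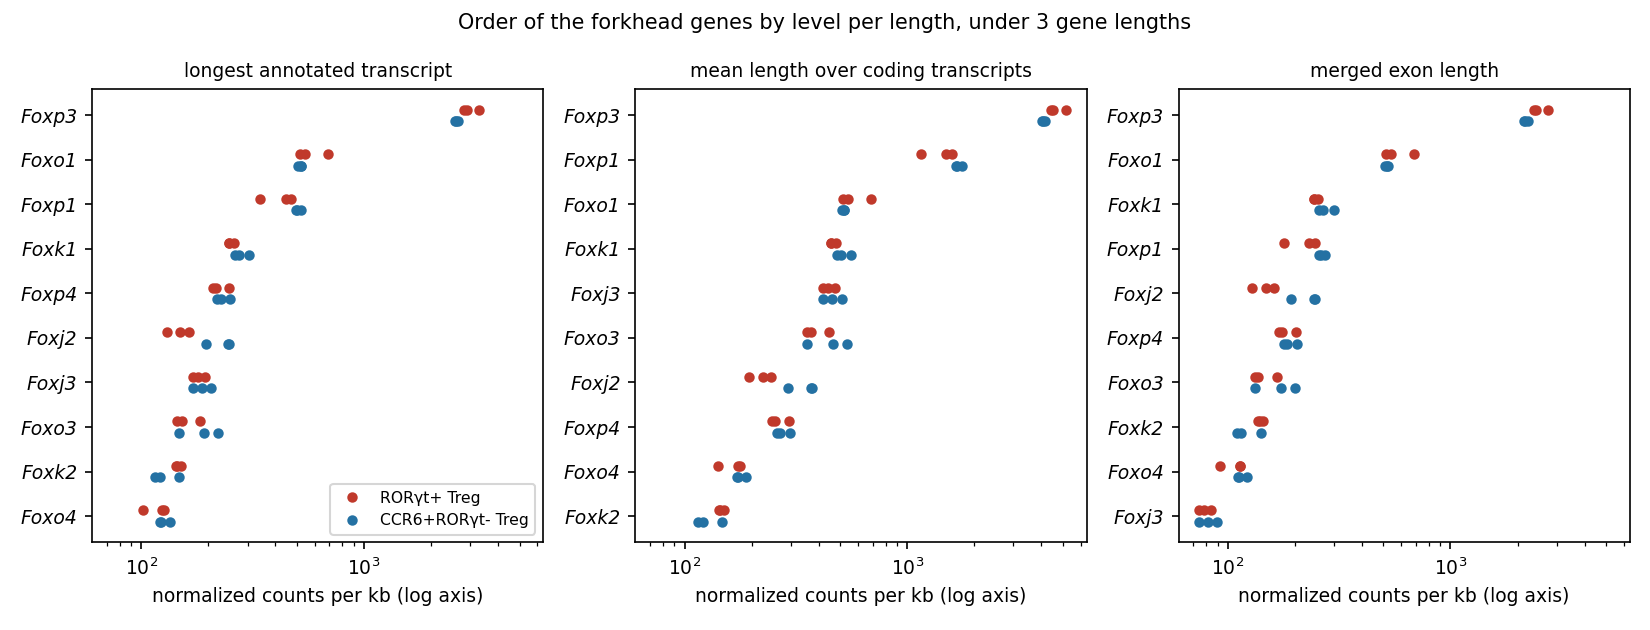
Normalized counts per kilobase (log axes) of the forkhead genes, 1 point per library, RORγt+ in red and CCR6+RORγt- in blue, ordered by mean from top to bottom in 3 panels that use the longest annotated transcript, the mean length of the coding transcripts and the merged exon length. Foxp3 stands above the rest in each panel, while the order below it differs between panels.

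Foxp3 took 56.1 to 59% of the summed per-kilobase level of the members in RORγt+ libraries and 51.3 to 53.5% in CCR6+RORγt- libraries. Foxj2 took 2.57 to 3.26% against 3.91 to 5.02%, and Foxp1 6.14 to 9.26% against 9.78 to 10.6%. The lowest Foxp1 share in the other RORγt+ libraries was 8.84%. The size of these shares depends on the gene length used: with the mean length of the coding transcripts Foxp1 took 12.6 to 18.2% against 19 to 20.3%, and with merged exon length 3.81 to 5.85% against 6.13 to 6.66%. Ratios between 2 members within a library do not depend on how that library was scaled, but their size depends on the lengths used. Foxj2 to Foxj3 was 0.828 ± 0.144 in RORγt+ and 1.23 ± 0.202 in CCR6+RORγt- libraries, and Foxk1 to Foxk2 was 1.73 ± 0.0932 and 2.23 ± 0.401 (SD, n = 3 each). With the mean length of the coding transcripts Foxj2 to Foxj3 was 0.502 and 0.748, and with merged exon length 1.87 and 2.79. Foxp3 to Foxp1 was 6.35, 6.13 and 9.61 against 5.25, 5.32 and 4.87, so the third RORγt+ library was again the extreme. These 3 ratios did not overlap between the groups, and each holds at least 1 gene whose own groups did not overlap. Foxj2 to Foxj3 spanned 0.678 to 0.964 against 1.04 to 1.44. Foxk1 to Foxk2 separated only narrowly, with 1.64 to 1.83 against 1.86 to 2.65. The other 2, Foxo1 to Foxo3 (3.4 to 3.76 against 2.34 to 3.56) and Foxp1 to Foxp4 (1.38 to 2.24 against 1.96 to 2.3), overlapped. How often ratios of other gene pairs separate was not worked out. No test was run on the ratios.

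**Figure D4:**
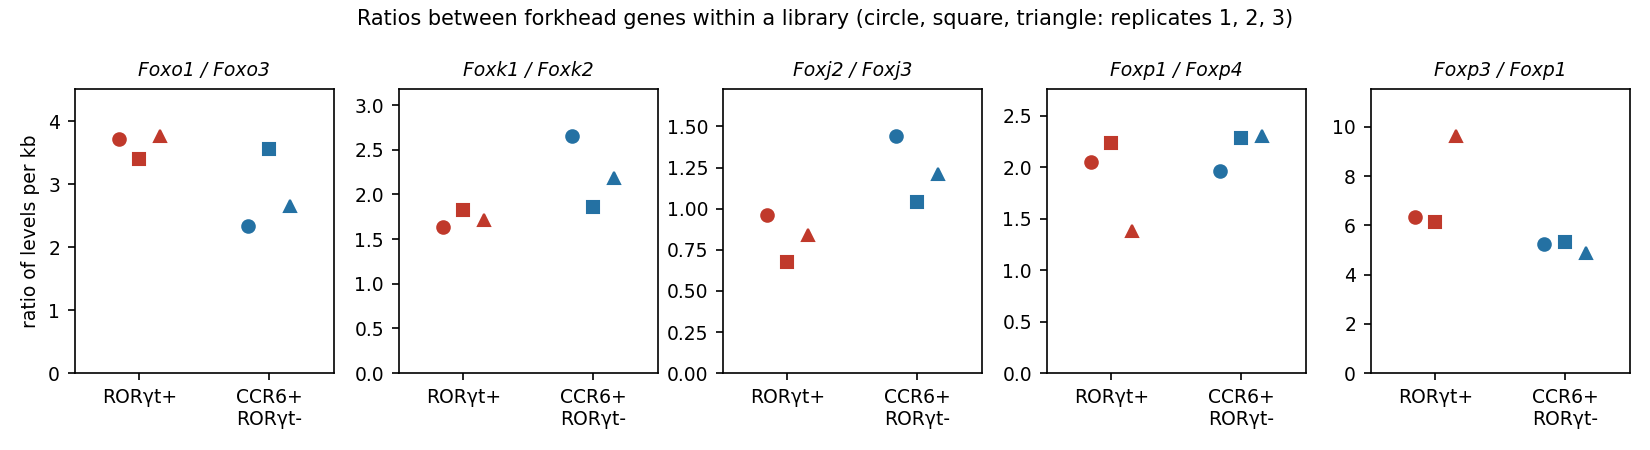
Ratio of per-kilobase levels of 5 pairs of forkhead genes in each library, RORγt+ and CCR6+RORγt- Tregs side by side. Foxj2 to Foxj3, Foxk1 to Foxk2 and Foxp3 to Foxp1 do not overlap between the groups, and the other pairs do.

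The genes whose pattern over the 6 libraries was most like that of Foxp3, out of 8833 with a mean of at least 100 and a gene symbol in the deposited table, were Prkag1, Ly6a, Selplg, Anxa6 and Ckb, each with a Pearson r of 0.995 to 0.996. Prkag1 encodes an AMPK subunit, Selplg a selectin ligand and Anxa6 an annexin. Without the third RORγt+ library their r was 0.983 to 0.997. For Foxp1 they were Herc1, Pde7a, Terf1, Zfp608 and Atxn7l1, with an r of 0.995 to 0.997, and 0.958 to 0.984 without that library. Both sets of genes were picked for the highest r over these libraries, so high values are favoured by the pick. The values are descriptions over libraries that share their groups and scaling.

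Another 6 forkhead genes were in the table but not among the members. Foxn3 had 4557, 1746 and 2926 normalized counts against 1801, 2482 and 2194, so its RORγt+ libraries spread more than the groups differed (limma adjusted p = 0.732). Foxn2 averaged 943 against 851 (log2 difference 0.124, limma adjusted p = 0.901), with a log2 difference of 0.335 without the third RORγt+ library. Foxm1, which acts in dividing cells, averaged 71.3 against 42.0 (limma adjusted p = 0.589), and Foxd2, Foxp2 and Foxf2 averaged below 14. Foxf2 was listed at 0 in all CCR6+RORγt- libraries.

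Around the members, 7 lists of partners, regulators and targets held 151 measured genes, of which 1 was higher and 2 were lower in RORγt+ Tregs. These were Itgae, Hdac9 and Bcl6, and 0.564% of all genes passed. Among Foxp3 targets, 1 of 23 rose and 0 fell, with a median log2 difference of -0.21. Itgae, the αE integrin chain that binds E-cadherin, had 2096, 2337 and 1894 normalized counts against 749, 852 and 655 (log2 difference 1.49 ± 0.15, SE; limma adjusted p = 0.012). All RORγt+ libraries were more than 2-fold above. The groups did not overlap for 14 of these 23 targets (60.9%), 8 higher and 6 lower, against 18.1% of all genes and 18.8% of those with a mean of at least 100. The list was chosen with earlier results of these data known, so this share is only a description and was not tested. Other targets with separate groups that did not pass the test, named after their values were seen, were Ctla4, Icos and Capg on the higher side (log2 differences 0.50, 0.45 and 0.71) and Nrp1, Tigit and Nt5e on the lower side (-0.895, -0.867 and -0.351).

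Among genes that act with or on Foxp3, 1 passed the test. Of 24 partners and 26 regulators of the Foxp3 locus, 0 passed in either direction, and the medians were -0.06 and -0.07. The partners with the smallest p-values were Ikzf4, Bcl11b, Ep300 and Nfatc1 (log2 differences -0.699, -0.286, -0.347 and -0.460, limma adjusted p = 0.212 to 0.499). Among locus regulators they were Nr4a3, Smad2, Uhrf1 and Nfatc1, the first 3 with log2 differences of -0.830, 0.318 and 0.675 (limma adjusted p = 0.296 to 0.499 over the 4). Nr4a3 was at -0.549 without the third RORγt+ library. Of 17 enzymes that modify the Foxp3 protein, 1 fell: Hdac9, a deacetylase, had 35.2, 37.4 and 22.0 normalized counts against 141, 178 and 165 (log2 difference -2.35 ± 0.28, SE; limma adjusted p = 0.0219). The median of these enzymes was 0.17.

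Of 30 FOXO targets, 1 fell and 0 rose, with a median of 0.03. Bcl6, a transcriptional repressor that marks follicular T cells and is a FOXO target in other settings, had 294, 285 and 279 normalized counts against 603, 583 and 576 (log2 difference -1.04 ± 0.13, SE; limma adjusted p = 0.0224). All RORγt+ libraries were near 285 and all others near 587. Klf2, S1pr1 and Sesn1, picked with their values in view, had log2 differences of 0.57, 0.46 and 0.64 without passing the test (limma adjusted p = 0.32, 0.249 and 0.212). Klf2 and S1pr1 are part of the homing programme of FOXO. Without the third RORγt+ library the log2 differences of Klf2, S1pr1 and Sesn1 were 0.362, 0.547 and 0.472. Of 30 FOXO regulators 0 passed, with a median of -0.02. The smallest p-values were at Igf1r (1113 ± 135 against 1968 ± 68.3, log2 difference -0.83, limma adjusted p = 0.0514) and Phlpp1 (501 ± 24 against 810 ± 15.7, -0.69, limma adjusted p = 0.0737), followed by Sgk1 (216 ± 20.8 against 86.4 ± 23.4, 1.34, limma adjusted p = 0.0775) and Mtor (-0.376, limma adjusted p = 0.458). Without the third RORγt+ library 2 of these passed: Igf1r (-0.925, limma adjusted p = 0.014) and Phlpp1 (-0.659, limma adjusted p = 0.0428). Igf1r also passed with array weights, a pseudocount of 5, upper quartile scaling and either filter on low values (limma adjusted p = 0.00419 to 0.0466). It did not pass with a pseudocount of 0.1, library totals, quantile normalization, robust variances or the replicate block. Nor did it pass when any other single library was left out. Phlpp1 and Sgk1 passed with array weights (limma adjusted p = 0.0187 and 0.0306) and in no further alternative. Igf1r is a receptor upstream of PI3K, Phlpp1 dephosphorylates AKT and Sgk1 phosphorylates FOXO proteins. Of 15 FOXK partners 0 passed, their median was -0.05, and the groups overlapped for each of them; the first by p were Sin3b, Mbd5, Dvl2 and Ogt (0.271, -0.366, -0.200 and 0.342, limma adjusted p = 0.643 to 0.779). These 4 were at 0.112, -0.070, -0.328 and 0.730 without the third RORγt+ library and did not pass. Itgae, Hdac9 and Bcl6 were each called without the third RORγt+ library, and each lost its call when any other single library was left out (limma adjusted p from 0.0606 to 0.0847 for Itgae, 0.0718 to 0.151 for Hdac9 and 0.0933 to 0.161 for Bcl6).

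**Figure D5:**
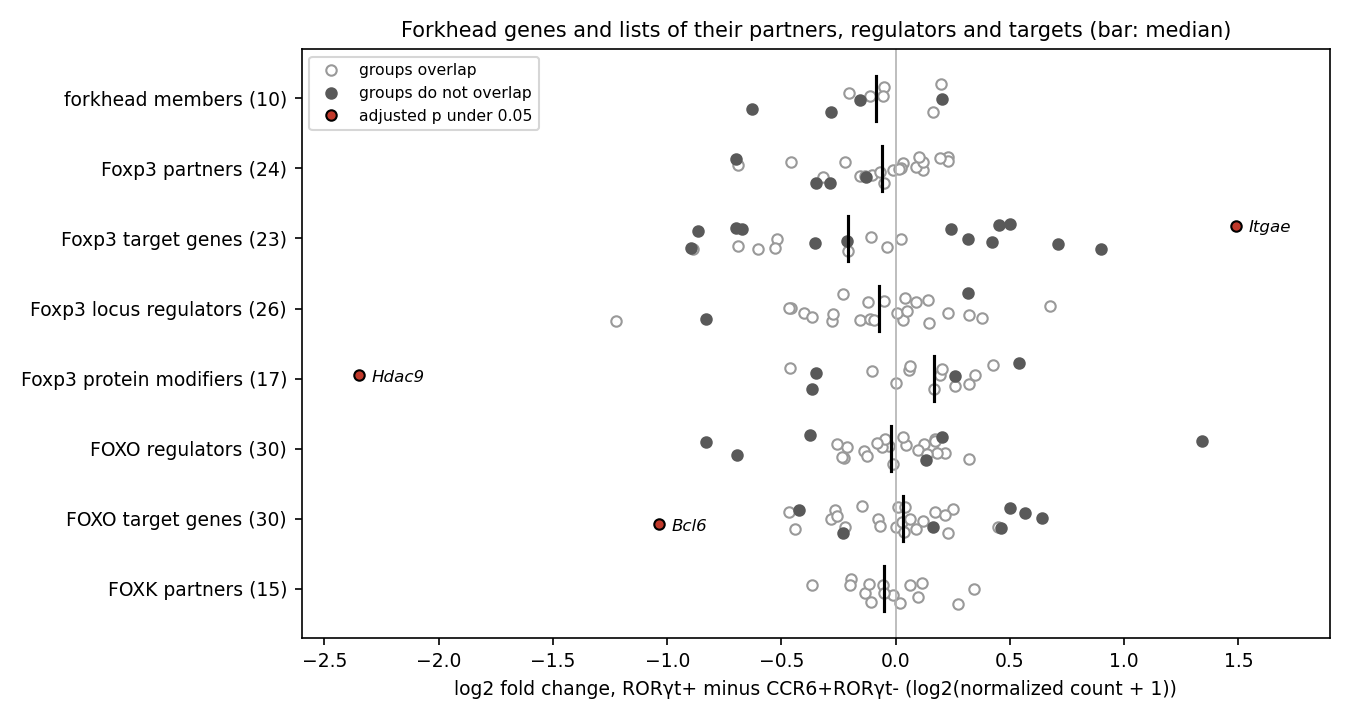
Log2 difference, RORγt+ minus CCR6+RORγt- Tregs, of the forkhead genes and of each measured gene of the 7 lists (1 row per list, number of genes in brackets, black bar at the median), with open points where the groups overlap, grey where they do not and red where the limma adjusted p is under 0.05. Itgae lies to the right at 1.49, and Hdac9 and Bcl6 to the left at -2.35 and -1.04.

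The forkhead motif was looked for in the 250 bases before RefSeq start sites (GRCm38.p6), as TGTTTAC or its reverse complement GTAAACA, which are the same motif on either strand. It occurred in 3.17% of all 32851 promoters. Of the members, 8 had promoters in that set, and 0 of their 11 promoters held it. Among 25 FOXO targets with a promoter, 3 held it, in 9.68% of 31 promoters. It occurred in 9.76% of 41 promoters of FOXO regulators, 8.33% of 36 of Foxp3 partners and 6.25% of 16 of Foxp3 targets. The share was 5.26% of 19 for enzymes that modify Foxp3, 2.7% of 37 for locus regulators and 0% of 18 for FOXK partners. The 4 FOXO regulator promoters with the motif came from 3 genes, as a single Mapkap1 site lay before more than 1 start site. These shares were not tested. The sites below are shown because they are the FOXO targets that carry the motif (in capitals).
Bcl2l11: aagacactaggGTAAACAcgccggggtgg
Txnip: ttggaggcctgGTAAACAagggccaagta
Bbc3: tctggcgggttTGTTTACaaacaatgggg
The motif started 227, 121 and 167 bases before the start site of Bcl2l11 (chr2:128125800-128125828), Txnip (chr3:96557825-96557853) and Bbc3 (chr7:16310083-16310111), all on the plus strand. Bcl2l11 encodes the cell death protein Bim, Bbc3 encodes Puma and Txnip limits glucose uptake. None of the 3 passed the test: the log2 differences were 0.035, 0.251 and -0.466, and without the third RORγt+ library 0.035, 0.001 and -0.749. Txnip was highest in the third RORγt+ library, with 12394 normalized counts against 6956 to 7907 in the other 5. A match to the motif is a description of the letters and not a binding site.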

How the data were processed

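Bulk RNA-seq of 6 libraries of sorted Tregs, 3 per group, was read from 1 deposited table of 15944 genes. Its values are a normalized signal on a count scale: not whole numbers, close in total between libraries, and deposited by the authors after normalization. The submitters' processing notes list Salmon 1.2.0, DESeq2 and GRCm38 without a role or order. Between 50.9% and 69.1% of the low values of a library came within 0.1 of whole reads; reads were therefore not recovered, and no count test was run. Sequencing depth is therefore known only roughly.

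Values were set to log2(normalized count + 1), with no filter on low values, and a limma 3.58.1 model (R 4.3.3) on the group, with a trend in the variance and a two-sided test, was fitted to all genes. P-values were adjusted by the Benjamini-Hochberg method over all genes, and an adjusted p under 0.05 was called. Fold changes on this scale understate the change of low genes. In simulated data on 15944 genes with 200 changed, the test found 30 of 100 genes given a 2-fold change and 74 of 100 given a 4-fold change, with 5 false calls of 109. The changed genes were drawn from all genes with a mean of at least 10, so these rates are not specific to genes at the members' levels. Every member here differed by less than 2-fold.

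The members and lists were chosen with earlier results of these data known. All members were named, and of each list the genes past the threshold or, if there were none, the 4 with the smallest adjusted p. Marker lists are given by their sums and any gene past the threshold. Marker lists covered T cells and Tregs, B cells, monocytes and neutrophils, dendritic cells, NK and CD8 T cells, gamma delta T cells, and red cells and platelets. Genes without a symbol in the table, 1842 rows, were named from GENCODE M21 where possible (1789 rows). Positions and sequences came from GENCODE M21 on GRCm38, and promoters from RefSeq; the sequence of 1 member is not reported here. Other pseudocounts, scalings, filters, weights, a replicate block, each library left out in turn and other gene lengths were tried.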

Additional observations from a re-analysis of the deposited data

How the results depend on the processing

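None of the forkhead genes was called in any of the 16 alternatives to the test. Of 160 member values under these alternatives, 158 kept their sign. The exceptions were Foxp4 at 0.0085 (log2) without CCR6+RORγt- replicate 1 and Foxj3 at 0.013 without CCR6+RORγt- replicate 3, with lowest values of -0.122 for each when 1 library was left out; the cause was not tested. Foxj2 came nearest to a call with array weights (limma adjusted p = 0.0826, range 0.0826 to 0.614 over the alternatives). The count of all genes called, 90 (51 higher and 39 lower), was 358 (170 higher and 188 lower) with array weights and 4 to 174 (1 to 85 higher, 0 to 89 lower) with 1 library left out, the highest without the third RORγt+ library. Of the 151 pathway genes, 3 were called; the count was 12 with array weights and 0 to 7 with 1 library left out. Whether libraries of the same replicate number were paired is not known from the labels. Their deviations from the group means had r of -0.105, -0.022 and -0.184. By these deviations, 0 of 6 libraries were closest to the library of the same number. With 3 libraries per group the deviations sum to 0 within a group, so these values cannot decide whether libraries were paired. With the replicate block, 1 gene was called (1 higher and 0 lower), and 0 members and 0 pathway genes. With either other gene length, 2 of the 10 members kept their place in the order of levels. The intervals of 9 of the 10 members include differences of both signs, and how depth limits them was not tested.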
